A study of Mus musculus with 86 samples.

Results

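Of 20175 probes counted in mouse back skin after ultraviolet B (UVB) exposure, 7 were at least 2 times as high at 6 h as at 0 h in the PanCK epidermis of each of 3 mice, at a mean level of 80 CPM or more at 6 h. CPM are counts scaled so that each sum of segments has the same total. These 7 probes were chosen by that rule, so their higher level at 6 h in PanCK epidermis is a description and is not tested. By the mean of the 3 mice, 5 of the 7 remained above 2 times their 0 h level at 24 h and are called here the probes that stayed high. The other 2, RTS0068906 and RTS0078750, were back under that limit at 24 h and are called the probes that returned. The name refers to the limit alone, since their 24 h means were still 1.74 and 1.82 times those at 0 h. Over all probes in PanCK epidermis, 71.6% had a higher mean at 24 h than at 0 h, with a median ratio of 1.43. The share of all probes above 2 times was not counted, so nothing is read from the count of 5. The deposited counts and the reference tables used here do not pair probe identifiers with genes. The probes are therefore given by their identifiers, with no gene name, role or sequence, and the labelled cell types could not be checked against marker genes.

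The mice were female C57BL/6 wild type animals of 12 to 16 weeks. Each received 1 dose of UVB, 500 mJ/cm2 at 290 to 320 nm, on the shaved back under isoflurane, and biopsies were labelled 0, 6 and 24 h after it. The labels name mice 208, 210 and 219 at each time, and unexposed skin at 6 or 24 h was not analysed here, so effects of UVB and of handling, anaesthesia or time of day cannot be told apart. Transcripts were counted by GeoMx digital spatial profiling, a method that frees the barcodes of hybridised probes with light, 1 selected tissue area (a segment) at a time, for sequencing.

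Pan-cytokeratin (PanCK) staining marks epithelial cells, which in the epidermis are mainly keratinocytes and in the dermis those of hair follicles and other skin appendages. CD45 marks leukocytes. The keratinocytes of the epidermis absorb most UVB, which damages their DNA. They respond within hours with damage checkpoints, stress signalling and the release of cytokines that draw leukocytes into the skin. The segments thus follow the cells that are hit first and the cells around them.

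The 85 tissue segments fall into 5 compartments, namely PanCK and CD45 areas of the epidermis, PanCK and CD45 areas of the deep dermis, and CD45 areas of adipose tissue. Segments of 1 mouse are not replicates, so those with the same mouse, compartment and time were added up to 1 sum, 44 in all. Each group held 3 mice, except CD45 adipose at 6 h with 2 (mice 210 and 219). The totals behind the PanCK epidermis levels were 200430 to 433425 counts per mouse at 0 h, 171490 to 289727 at 6 h and 86613 to 111738 at 24 h, so the 24 h levels rest on the fewest counts. Outside PanCK epidermis a sum held 17076 to 422250 counts. CPM values are thus relative to all other probes of a sum. The median probe of a PanCK epidermis sum was at 24.9 to 27.96 CPM at 0 h, 29.2 to 34.6 at 6 h and 34.6 to 40.3 at 24 h. In such data fewer cells with a transcript and less of it per cell cannot be told apart.

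At 6 h, 1516 probes had a mean of 80 CPM or more in PanCK epidermis, and their median ratio of 6 h to 0 h was 0.913. Over all probes that median was 1.13, and 61.9% had a higher mean at 6 h. At any level, 156 probes passed the 2-fold limit in every mouse. The mirror rule, a 0 h mean of 80 CPM or more and a fall by the same factor in every mouse, found 25 probes. Just inside the limit on level stood RTS0068833 at 87.4 CPM and RTS0068559 at 148 CPM. Just outside it were RTS0074626 at 79.95 CPM and RTS0073895 at 77.6 CPM. Just inside the limit on the fold stood RTS0078750, with a lowest ratio of 2.00 over the mice, and RTS0077040 with 2.06. RTS0065410 and RTS0072614 missed it with 1.98 each.

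**Figure D1:**
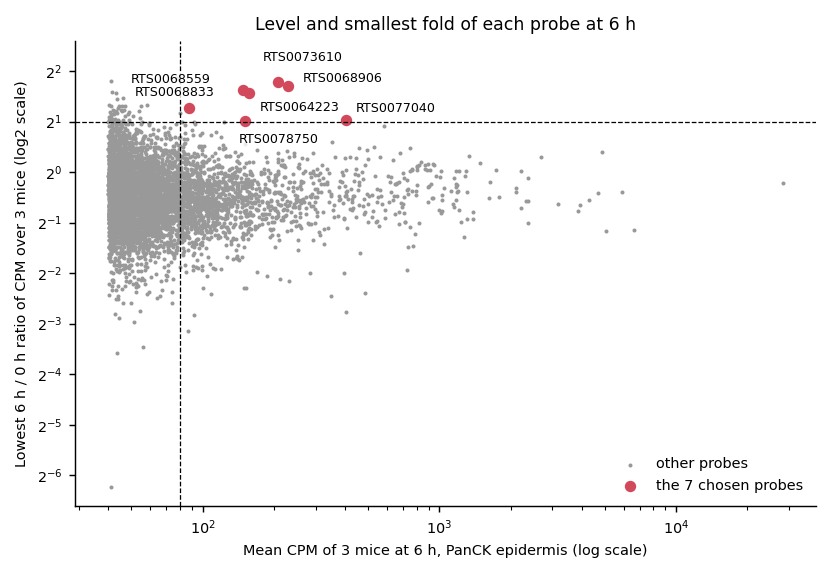
Each point is 1 of the probes with a mean of 40 CPM or more at 6 h in PanCK epidermis. The x axis is that mean over 3 mice (CPM, log scale), the y axis the smallest ratio of 6 h to 0 h over the 3 mice (log2 scale), and dashed lines mark 80 CPM and a ratio of 2. The 7 chosen probes, in red, lie at 87.4 to 404 CPM, and RTS0078750 and RTS0077040 lie close to the limit on the ratio. The 2 probes whose smallest ratio is 0 are not drawn.

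As background, edgeR's quasi-likelihood test of 6 h against 0 h in PanCK epidermis called 0.329% of 6076 tested probes higher at a Benjamini-Hochberg adjusted p under 0.05. Of the 7 probes, 5 entered that test and 4 were called at 6 h, which the rule had already used, so nothing is read from it. RTS0064223 and RTS0068833 had too few counts in most sums to enter it, and RTS0077040 was not called, with an adjusted p of 0.167 at 6 h.

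RTS0073610 was the only one of the 7 above 2 times its 0 h level in every mouse at 24 h. In PanCK epidermis it was at 49.9, 64.6 and 55.9 CPM in mice 208, 210 and 219 at 0 h. At 6 h it was at 173, 221 and 227 CPM, and at 24 h at 196, 286 and 372 CPM. All values at 6 and 24 h lay above all values at 0 h, and each mouse was higher at 24 h than at 6 h. The mean thus went from 56.8 ± 7.39 CPM (SD, n = 3) to 207 ± 29.7 and 285 ± 88.1 CPM, which is 3.65 and 5.02 times the 0 h mean. It was also the only one of the 7 whose mean at 24 h exceeded that at 6 h, at a ratio of 1.38. All 6 segments at 6 h (162 to 285 CPM) lay above the highest of the 8 segments at 0 h (92.1 CPM). So did all 6 at 24 h (183 to 397 CPM). The segments at 0 and 6 h are parts of the sums that the rule used, so their separation is a description.

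RTS0068559, also among the probes that stayed high, peaked at 6 h. Its 0 h values were 44.9, 27.7 and 55.9 CPM in mice 208, 210 and 219, and its 6 h values 138, 131 and 175 CPM. Its 24 h values were 104, 125 and 70.5 CPM. Both later times lay above 0 h without overlap, but the ratio of 24 h to 0 h differed between the mice. It was 2.31 in mouse 208, 4.53 in mouse 210 and 1.26 in mouse 219, where it rested on 24 counts at 0 h and 7 at 24 h (95% exact interval of the ratio 0.46 to 3.01, counting error only). The means were 42.8 ± 14.2, 148 ± 23.5 and 99.9 ± 27.6 CPM (SD, n = 3). All 6 segments at 6 h were above the 8 at 0 h, as were 4 of the 6 at 24 h.

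The probes that returned had a like shape at 6 h. RTS0068906 was at 49.9, 69.2 and 76.9 CPM at 0 h in mice 208, 210 and 219, at 163, 259 and 268 CPM at 6 h, and at 115, 134 and 90.6 CPM at 24 h. Its mean at 6 h was 3.52 times that at 0 h, 230 ± 58.2 against 65.3 ± 13.9 CPM (SD, n = 3), and stood at 113 ± 21.9 CPM at 24 h, 1.74 times the 0 h mean. In each mouse the 24 h value was below the 6 h value, yet the 24 h values did not overlap those at 0 h. The exact intervals of the ratio of 24 h to 0 h, for counting error only, did not exclude an unchanged level in any mouse. They were 0.86 to 6.19, 0.97 to 3.72 and 0.50 to 2.52 in mice 208, 210 and 219. Over all probes in PanCK epidermis the median ratio at 24 h was 1.43. Whether the return was partial or full is therefore not settled by these values.

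RTS0078750 was at 59.9, 76.1 and 69.9 CPM at 0 h, at 129, 186 and 140 CPM at 6 h and at 115, 107 and 151 CPM at 24 h, in mice 208, 210 and 219. It had the smallest 6 h ratio of the 7, 2.21 by the means (68.6 ± 8.21 to 152 ± 30.6 CPM, SD, n = 3). At 24 h its mean was 125 ± 23.2 CPM, 1.82 times that at 0 h, and mouse 219 was higher at 24 h than at 6 h. The division between the probes that stayed high and those that returned is a matter of degree. By the means, RTS0078750 kept more of its 6 h level at 24 h (ratio 0.82) than 4 of the 5 that stayed high. These were RTS0077040 (0.78), RTS0068559 (0.67), RTS0068833 (0.34) and RTS0064223 (0.25), while RTS0073610 was at 1.38. With a limit of 1.5 times in place of 2, all 7 stayed high. In both probes that returned, all 6 segments at 6 h lay above the 8 at 0 h.

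**Figure D2:**
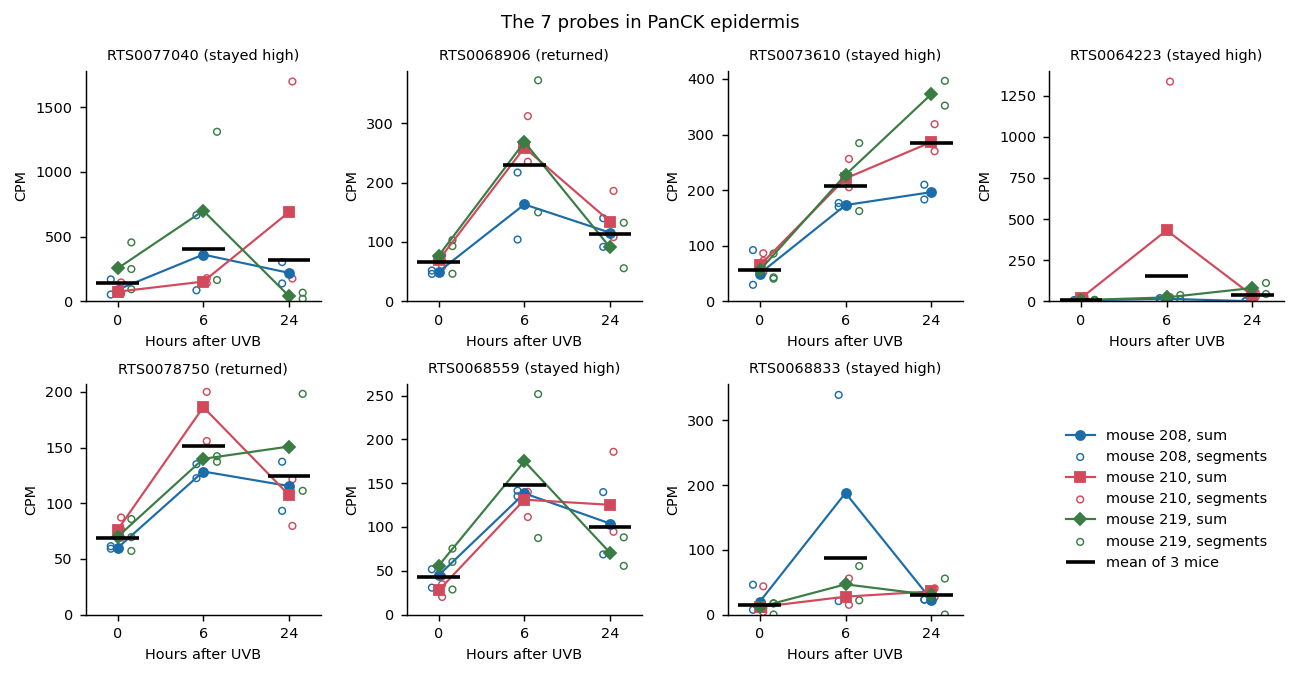
Levels of the 7 probes in PanCK epidermis (y axis, CPM, from 0; each panel has its own scale) at 0, 6 and 24 h after UVB (x axis). Filled symbols joined by lines are the sums of mice 208, 210 and 219, open circles are single segments, and black bars are means of 3 mice. RTS0068906, RTS0073610, RTS0078750 and RTS0068559 were higher in all 6 segments at 6 h than in any of the 8 at 0 h, whereas single segments lie far above the rest for RTS0077040, RTS0064223 and RTS0068833.

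The remaining 3 probes, all placed among those that stayed high, had 6 h means that rested on a few segments. RTS0064223 was at 5.0, 18.5 and 7.0 CPM at 0 h and at 14.8, 431 and 23.3 CPM at 6 h in mice 208, 210 and 219. The value of mouse 210 came from 1 segment with 120 counts (1336 CPM), and the other 5 segments at 6 h lay between 10.4 and 37.4 CPM. The groups overlapped, since mouse 208 at 6 h was below mouse 210 at 0 h. In mouse 208 the ratio of 2.97 rested on 1 count at 0 h and 3 at 6 h (95% exact interval 0.24 to 156), and in mouse 219 that of 3.34 on 3 and 4 counts (0.56 to 22.8). The 24 h values were 35.8 and 80.5 CPM in mice 210 and 219. It had 0 counts in mouse 208, where 3 counts would be 34.6 CPM. Its 24 h mean of 38.8 CPM is near the level of the median probe there.

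RTS0068833 was at 20.0, 11.5 and 11.6 CPM at 0 h, at 188, 27.6 and 46.6 CPM at 6 h and at 23.1, 35.8 and 30.2 CPM at 24 h, in mice 208, 210 and 219. One segment of mouse 208 with 36 counts (339 CPM) stood above the other 5 at 6 h (15.0 to 74.9 CPM). The mouse values at 6 h did not overlap those at 0 h. In mouse 210 the ratio of 2.39 rested on 5 counts at 0 h and 8 at 6 h (95% exact interval 0.69 to 9.30). Its 24 h mean of 29.7 ± 6.37 CPM (SD, n = 3), 2.06 times that at 0 h, was below the median probe of every PanCK epidermis sum at that time.

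RTS0077040 had the highest mean of the 7 at each time and differed widely between segments. It was at 89.8, 73.8 and 254 CPM at 0 h, at 361, 152 and 700 CPM at 6 h and at 219, 689 and 40.3 CPM at 24 h, in mice 208, 210 and 219. The 6 h and 0 h values overlapped, because mouse 210 at 6 h was below mouse 219 at 0 h. At 6 h, 1 segment of mouse 219 was at 1310 CPM and 1 of mouse 208 at 665 CPM, and the other 4 lay between 84.8 and 178 CPM. At 24 h, 1 segment of mouse 210 was at 1699 CPM, and the next was at 303 CPM. Mouse 219, the highest at 0 and 6 h, was at 0.16 of its 0 h level at 24 h (4 counts against 109 at 0 h, 95% exact interval 0.04 to 0.42). The mean at 24 h, 316 ± 335 CPM (SD, n = 3), therefore has an SD larger than itself.

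Levels were also taken with each of the 20 PanCK epidermis segments left out in turn. The rule uses 0 and 6 h alone, so leaving out any of the 6 segments at 24 h could not change membership. Only the 8 segments at 0 h and the 6 at 6 h could. RTS0068906, RTS0073610 and RTS0068559 met the rule in 19 of 20 omissions, RTS0064223 in 18, RTS0078750 in 17, and RTS0077040 and RTS0068833 in 16. Without the segment of mouse 210 at 1336 CPM, RTS0064223 no longer met it. The same was true of RTS0068833 without the segment of mouse 208 at 339 CPM. In PanCK epidermis the mean CPM of the scarcer 10087 probes, those with the lowest mean over all sums, was 17.3 to 21.6 at 0 h, 23.1 to 26.4 at 6 h and 32.9 to 35.4 at 24 h. When levels were divided by that value, a scaling added after seeing the data, 4 probes met the rule, of which 3 (RTS0068906, RTS0073610 and RTS0068559) are among the 7. Of the 4, 2 stayed high on this scale, and 1 of these was among the 5 that stayed high by CPM.

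The other 4 compartments were not used by the rule, though they come from the same mice. For each of them, edgeR's model was fitted to its own sums, with terms for time and for mouse. A probe enters the fit only with enough counts in a few sums, which a probe that rises can meet through its high times alone, so counts over the probes that entered are given as values and not as support. RTS0064223 and RTS0068833 entered in none of the 4. With all 7 probes counted by mean CPM, 6 were higher at 6 h than at 0 h in CD45 epidermis and 5 were in PanCK deep dermis, against 3 in CD45 deep dermis, while all 7 were in CD45 adipose. The adipose mean at 6 h holds mice 210 and 219 alone, and within both of these mice 4 of the 7 were higher than at 0 h. Over all probes with counts at 0 h, the share with a higher mean at 6 h was 54.9, 50.1, 48.9 and 45.9% in that order. The median ratio of 6 h to 0 h over the 7 was 3.17, 1.82, 0.881 and 1.93 in the same order, against 1.07, 1.00, 0.980 and 0.962 over all probes. At 24 h it was 1.96, 1.44, 1.09 and 1.92, against 1.22, 1.01, 1.09 and 1.02.

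**Figure D3:**
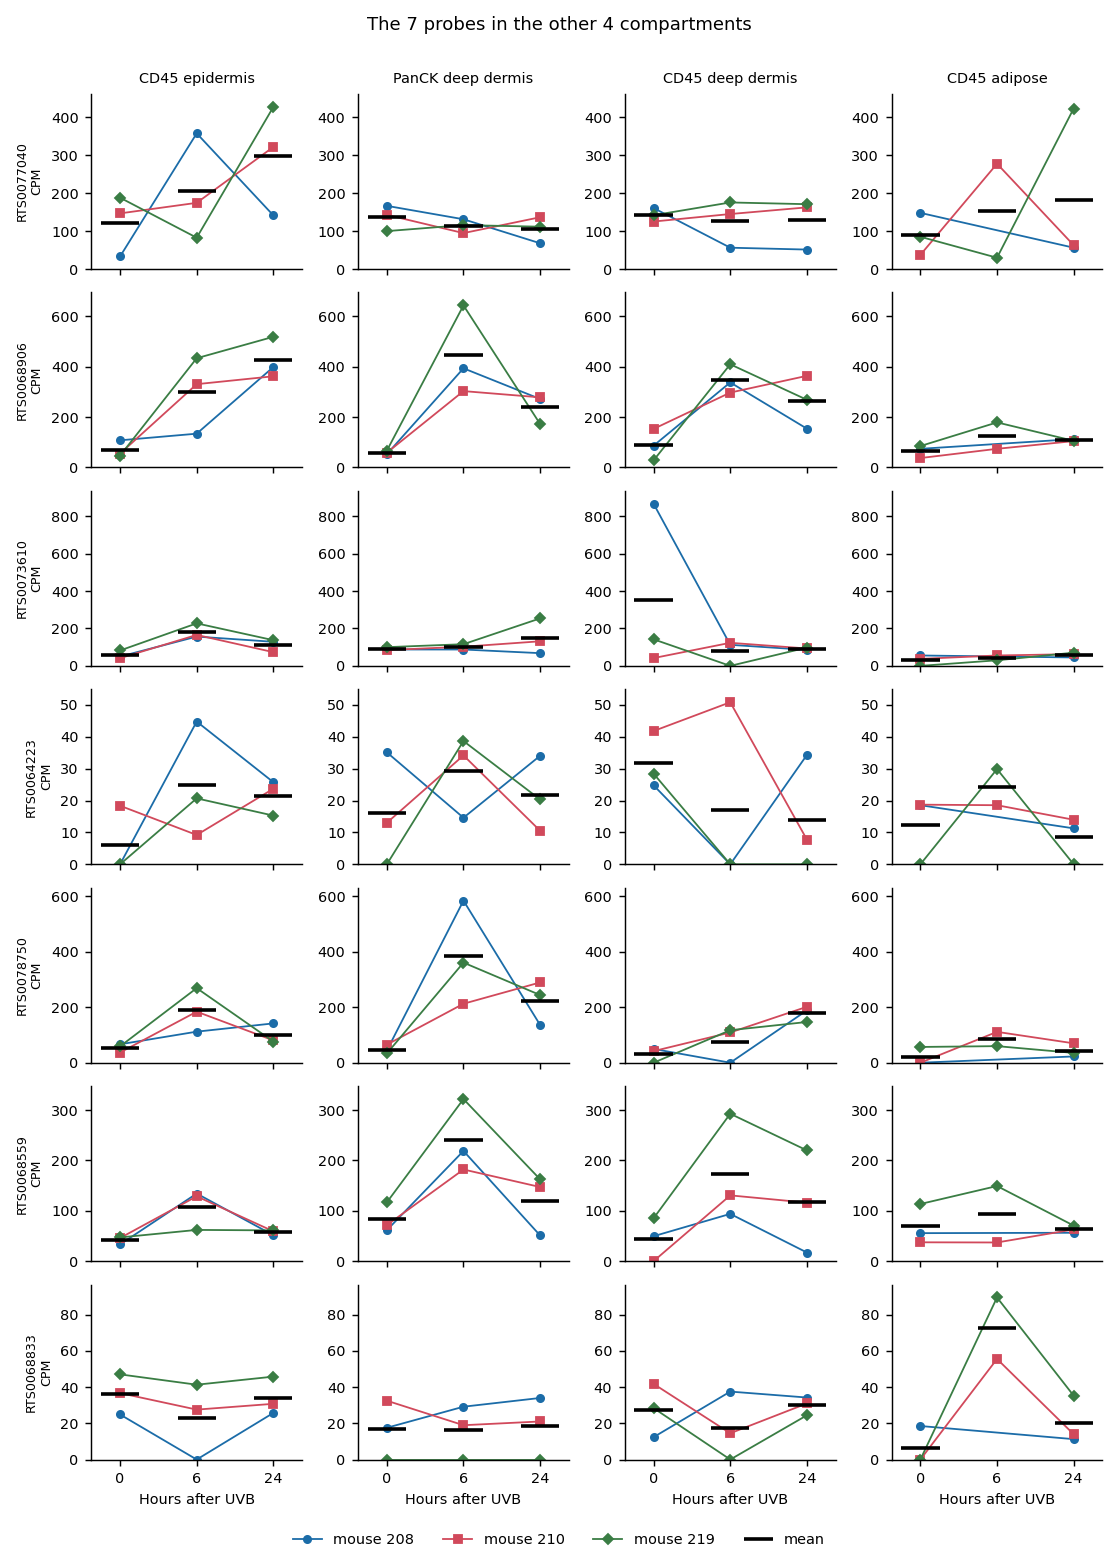
Levels of the 7 probes (rows; y axis, CPM, from 0, 1 scale per row) at 0, 6 and 24 h after UVB (x axis) in the 4 compartments that the rule did not use (columns). Lines join the sums of each mouse and black bars are means (3 mice; 2 in CD45 adipose at 6 h). RTS0068906 and RTS0078750 stand higher at 6 h than at 0 h in every mouse of CD45 epidermis and PanCK deep dermis.

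In CD45 epidermis, RTS0068906, RTS0073610 and RTS0078750 were called higher at 6 h among the probes that entered the test, and RTS0077040 joined them at 24 h. The test called 0.551% of 907 probes higher at 6 h, which is 5 probes, and 3 of these were among the 7, of which 4 were tested. At 24 h it called 25.1% higher and all 4 tested were among them. With a share of 25.1% over the 907 probes that passed the filter, a call at 24 h is common among those probes. When all 20175 probes were tested, 104 were called higher at 24 h, with RTS0068906 alone among the 7. With no filter, the 6 h calls of RTS0068906, RTS0073610 and RTS0078750 did not hold (adjusted p = 0.181, 0.407 and 0.348 in edgeR's test).

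RTS0068906 was at 108, 55.1 and 47.1 CPM in CD45 epidermis at 0 h in mice 208, 210 and 219, at 134, 331 and 434 CPM at 6 h, and at 399, 362 and 519 CPM at 24 h. Neither later time overlapped 0 h, and each mouse was higher again at 24 h than at 6 h. In PanCK epidermis each mouse was lower at 24 h than at 6 h, a contrast that was not tested. In edgeR's quasi-likelihood test the log2 change was 2.08 ± 0.41 (SE) at 6 h (adjusted p = 0.00777) and 3.13 ± 0.38 at 24 h (adjusted p = 3.47e-06). The 24 h call held under all 11 alternative settings, and the 6 h call under 7, with adjusted p-values from 0.00104 to 0.451. One of these settings, omission of the single segment with very few counts, could not change either call. That segment lies in CD45 deep dermis.

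RTS0073610 was at 49.8, 41.3 and 82.4 CPM in CD45 epidermis at 0 h, at 157, 166 and 227 CPM at 6 h and at 129, 73.4 and 137 CPM at 24 h. The 6 h values lay above those at 0 h, whereas at 24 h mouse 210 was below mouse 219 at 0 h. All 3 mice were lower at 24 h than at 6 h, while in PanCK epidermis all 3 were higher, a contrast that was not tested. The log2 change in edgeR's test was 1.74 ± 0.39 (SE) at 6 h (adjusted p = 0.0224) and 1.51 ± 0.38 at 24 h (adjusted p = 0.00267), with the call kept under 5 of 10 alternatives at 6 h and 7 of 11 at 24 h.

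RTS0078750 was at 66.4, 36.7 and 58.8 CPM in CD45 epidermis at 0 h, at 112, 184 and 269 CPM at 6 h and at 142, 80.5 and 76.3 CPM at 24 h. Neither later time overlapped 0 h, and mice 210 and 219 were lower at 24 h than at 6 h. The log2 change in edgeR's test was 1.89 ± 0.42 (SE) at 6 h (adjusted p = 0.0224) and 1.52 ± 0.41 at 24 h (adjusted p = 0.00499), with the call kept under 6 of 10 alternatives at 6 h and 6 of 11 at 24 h.

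The 6 h values in CD45 epidermis rested on 5 to 36 counts per probe and mouse for these 3 probes. With no filter, so that all 20175 probes were tested, and with limma on mean log2(CPM + 1), no member was called at 6 h. None was called either without mouse 210 or without mouse 219, while 2 were called without mouse 208. At an unadjusted p under 0.05, 4 of the 7 passed with no filter. DESeq2's test called 1, RTS0068906, and gave no adjusted p for RTS0073610 and RTS0078750. At 24 h, without mouse 219, 2 of the 4 calls held, and those of RTS0073610 and RTS0078750 were lost (adjusted p = 0.0502 and 0.0587 in edgeR's test). The same 2 calls were lost when the scarcer 10087 probes set the scale (adjusted p = 0.307 and 0.339).

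RTS0077040 was uneven in CD45 epidermis as well. It was at 33.2, 147 and 188 CPM at 0 h, at 358, 175 and 82.7 CPM at 6 h and at 142, 322 and 428 CPM at 24 h, in mice 208, 210 and 219. All 3 mice were higher at 24 h than at 0 h, but the groups overlapped. In edgeR's test the change was not called at 6 h (log2 change 0.79 ± 0.57 SE, adjusted p = 0.529) and was called at 24 h (1.88 ± 0.50, adjusted p = 0.00384), as under 9 of 11 alternatives. Of the 3 probes not tested, RTS0068559 was at 33.2 to 47.1 CPM at 0 h, 62.0 to 134 at 6 h and 51.5 to 61.1 at 24 h. RTS0064223 was at no more than 44.7 CPM and RTS0068833 at no more than 47.1 CPM at any time, where the median probe of these sums was at 24.9 to 45.8 CPM.

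In PanCK deep dermis, RTS0068906, RTS0078750 and RTS0068559 rose by 6 h, and RTS0073610 and RTS0077040 did not pass the test. The test called 1.63% of 1898 probes higher at 6 h and 7.96% at 24 h. Of the 7 probes, 5 were tested, with 3 called higher at 6 h and 2 at 24 h. No member was called lower in any of the 4 compartments. In CD45 epidermis, 4 were tested, and 13 of 907 probes were called lower at 6 h and 244 at 24 h. In PanCK deep dermis the probes called lower were 36 and 278 of 1898. With 1 member tested in each, they were 4 and 42 of 624 in CD45 deep dermis and 0 and 9 of 839 in CD45 adipose. With so few members tested, nothing is read from this.

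RTS0068906 was at 52.7, 58.5 and 66.7 CPM in PanCK deep dermis at 0 h in mice 208, 210 and 219, at 394, 303 and 644 CPM at 6 h and at 272, 279 and 173 CPM at 24 h. All values after UVB lay above all values at 0 h, and all 3 mice were lower at 24 h than at 6 h. The mean of 447 ± 176 CPM (SD, n = 3) at 6 h stands beside 230 ± 58.2 CPM in PanCK epidermis, a difference that was not tested because the rule had used the epidermal values. In edgeR's test the log2 change was 2.72 ± 0.38 (SE) at 6 h (adjusted p = 0.000566), called under all 11 alternatives. At 24 h it was 1.85 ± 0.40 (adjusted p = 0.00259), called under 10 of 11 and not without mouse 210 (adjusted p = 0.0592).

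RTS0078750 was at 43.9, 65.0 and 33.4 CPM in PanCK deep dermis at 0 h, at 584, 212 and 361 CPM at 6 h and at 136, 289 and 244 CPM at 24 h. Neither later time overlapped 0 h, and mouse 210 was higher at 24 h than at 6 h. The mean at 6 h was 386 ± 187 CPM (SD, n = 3). The log2 change in edgeR's test was 2.68 ± 0.47 (SE) at 6 h (adjusted p = 0.00457) and 2.05 ± 0.49 at 24 h (adjusted p = 0.00559), both called under all 11 alternatives. For both RTS0068906 and RTS0078750, all 6 deep dermal segments at 6 h and all 6 at 24 h lay above the highest at 0 h.

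RTS0068559 was at 61.4, 71.5 and 117 CPM in PanCK deep dermis at 0 h, at 219, 182 and 322 CPM at 6 h and at 51.0, 147 and 163 CPM at 24 h. The 6 h values lay above those at 0 h, and the 24 h values overlapped them. The log2 change in edgeR's test was 1.39 ± 0.36 (SE) at 6 h (adjusted p = 0.0419) and 0.49 ± 0.39 at 24 h (adjusted p = 0.395). Its 6 h call was lost without mouse 208, 210 or 219 and held under 5 of 11 alternatives, with adjusted p-values from 0.0207 to 0.205.

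RTS0073610, called higher in CD45 epidermis, was at 87.8, 84.5 and 100 CPM in PanCK deep dermis at 0 h and at 87.6, 102 and 116 CPM at 6 h. The values at 24 h were 68.0, 131 and 254 CPM. The groups overlapped at both times, and the log2 changes in edgeR's test were 0.05 ± 0.40 (SE) at 6 h (adjusted p = 0.965) and 0.50 ± 0.39 at 24 h (adjusted p = 0.382). RTS0077040 was at 100 to 167 CPM at 0 h, 94.8 to 131 at 6 h and 68.0 to 137 at 24 h, with log2 changes of -0.46 ± 0.36 (SE, adjusted p = 0.543) and -0.47 ± 0.37 (adjusted p = 0.388). The even segments of this probe here (47.0 to 177 CPM over all times) stand beside the range of 18.5 to 1699 CPM in PanCK epidermis.

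**Figure D4:**
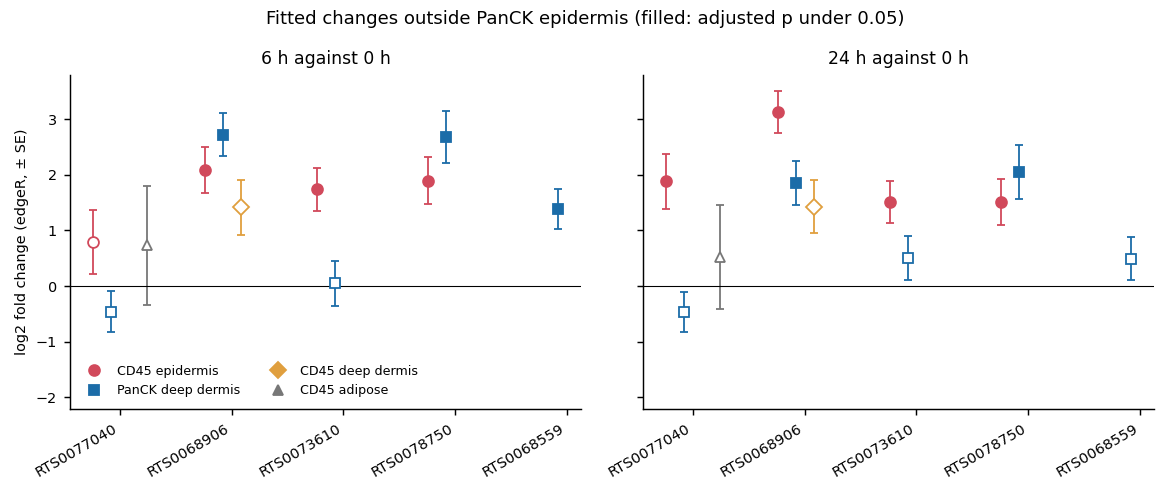
Log2 fold changes against 0 h from edgeR's quasi-likelihood fit (y axis; bars are ± SE) at 6 h (left) and 24 h (right) for the 5 probes tested outside PanCK epidermis (x axis). Each colour and symbol is a compartment, and filled symbols have a Benjamini-Hochberg adjusted p under 0.05. RTS0068906 and RTS0078750 were called in CD45 epidermis and PanCK deep dermis at both times, and RTS0073610 was called in CD45 epidermis at both times.

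In CD45 deep dermis, which had as few as 17076 counts in a sum, RTS0068906 was the only one of the 7 to enter the test. It was at 86.7, 153 and 28.4 CPM at 0 h in mice 208, 210 and 219, at 338, 298 and 410 CPM at 6 h and at 154, 364 and 269 CPM at 24 h. The later values did not overlap those at 0 h, although mouse 208 at 24 h was barely above mouse 210 at 0 h. In edgeR's test neither change was called, with 1.41 on the log2 scale at 6 h (adjusted p = 0.248) and 1.43 at 24 h (adjusted p = 0.0871). That test called 0% of 624 probes higher at 6 h (4 lower) and 2.72% at 24 h. At an unadjusted p under 0.05, RTS0068906 passed at both times. DESeq2's test called 1 probe higher at 6 h, which was not a member.

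Of the 6 probes that were not tested in CD45 deep dermis, RTS0068559 was at 49.5, 0 and 85.2 CPM at 0 h and at 93.9, 131 and 293 CPM at 6 h. Its 24 h values of 17.1, 116 and 220 CPM overlapped those at 0 h. RTS0078750 was at 49.5, 41.8 and 0 CPM at 0 h, and its 24 h values of 188, 201 and 147 CPM lay above all of these. Its 6 h values of 0, 109 and 117 CPM overlapped those at 0 h. A value of 0 here allows up to 41.8 CPM for mouse 210 and 85.2 CPM for mouse 219 at 0 h, the level of 3 counts. RTS0073610 was at 867 CPM in mouse 208 at 0 h (70 counts), 67 of them in 1 segment, and at 41.8 and 142 CPM in mice 210 and 219. At 24 h it was at 85.7 to 97.8 CPM.

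The changes in CD45 epidermis and CD45 deep dermis were compared directly in 1 fit with the biopsy as a block, over 1287 probes. At 6 h the differences called made up 0.155%, with 0 of the 5 tested members among them (2 of the 5 at an unadjusted p under 0.05). At 24 h they made up 11.2%, with 2 of the 5. The log2 change at 24 h was higher in CD45 epidermis by 3.11 for RTS0073610 (adjusted p = 0.0167 in edgeR's test) and by 2.36 for RTS0077040 (adjusted p = 0.0309). Both calls were lost without mouse 208 (adjusted p = 0.668 and 0.308), the mouse with the 867 CPM value at 0 h, and without mouse 219 (0.170 and 0.213). Of 5 alternatives, 3 kept the call of RTS0073610 and 0 kept that of RTS0077040 (adjusted p-values from 0.0527 to 0.308). For RTS0068906 the difference was 1.87 (adjusted p = 0.0592).

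In CD45 adipose, RTS0077040 alone was tested and not called at either time (log2 changes 0.73 and 0.52, adjusted p = 0.953 and 0.949 in edgeR's test). The test called 0.119% of 839 probes higher at 6 h and 1.31% at 24 h. The level of this probe at 24 h was 56.3, 62.8 and 424 CPM in mice 208, 210 and 219, so that 1 mouse was high. RTS0068906 was at 74.1 and 179 CPM at 6 h in mice 210 and 219, above 37.4 and 85.1 CPM in the same mice at 0 h. The 6 h and 0 h values overlapped, because mouse 210 at 6 h was below mouse 219 at 0 h. At 24 h this probe was at 105 to 113 CPM, above all 3 values at 0 h. It had 4, 2 and 3 counts at 0 h in mice 208, 210 and 219, and 10, 15 and 3 at 24 h. The difference in mouse 219 is thus between 3 counts and 3 counts in sums of unlike total. RTS0068833 had 1, 0 and 0 counts in adipose at 0 h in mice 208, 210 and 219, 3 counts in each of mice 210 and 219 at 6 h, and 1 to 2 counts at 24 h, too few to compare.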

How the data were processed

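The files deposited by the authors hold counts, 1 whole number per probe and segment, for which the file headers name GeoMx NGS Pipeline 2.3.3.10. They are not normalised. Build, aligner and probe panel were not given in the sources used here. All 7 probes, the rule and the lists were chosen with earlier results of these data known. Gene lists and cell type markers could not be run, since no table used here pairs identifiers with genes, and all 7 probes are named.

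Segments that shared mouse, compartment and time were added up (44 sums). The rule used CPM of these sums, scaled to the total count, and the mean CPM of 3 mice at 24 h for the split. Tests used edgeR 4.0.16 (R 4.3.3, limma 3.58.1): TMM scaling, filterByExpr with a minimum count of 10, the quasi-likelihood F test and Benjamini-Hochberg adjustment over all probes tested in a compartment. Procedures were tested on simulated data. Each SE is the fitted log2 change over the square root of its F. Intervals of ratios are exact at 95% and, like the limit of 3 counts beside a count of 0, cover counting error only.

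The mouse was a block because the labels give the same mouse number at each time. Deviations from group means in sums of 1 mouse had a median correlation, across probes, of 0.0173 in PanCK epidermis and 0.0184 in CD45 epidermis. In the deep dermis it was 0.147 (PanCK) and 0.157 (CD45), and in adipose tissue 0.259.

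The 11 alternative settings of the tests were upper quartile scaling, DESeq2's size factors, DESeq2's test (version 1.42.0), no filter, no block, limma on log2(CPM + 1) averaged over segments, omission of the 1 shallow segment (under 10% of the median total), each mouse left out, and scaling to the scarcer 10087 probes, added after seeing the data. Leaving out single segments was also added then. The shallow segment lies in CD45 deep dermis, so its omission repeats the main fit in every other compartment. There it is counted among the alternatives although it could not differ. A no template control was not used.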

Additional observations from a re-analysis of the deposited data

Results flagged for a closer look

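Segments far from the others of their group were sought for each of the 7 probes in groups of 4 to 10 segments. The cut-off is set for about 5% of groups of independent, normally distributed values. Segments of 1 mouse are not independent and many hold few counts, so no excess over 5% is read. Of 91 such sets of values, 11 held a far segment. In PanCK epidermis at 6 h these were RTS0064223 at 1336 CPM in mouse 210 (next 37.4 CPM), RTS0068833 at 339 CPM in mouse 208 (next 74.9 CPM) and RTS0068559 at 252 CPM in mouse 219 (next 141 CPM). At 24 h there, RTS0077040 was at 1699 CPM in mouse 210 (next 303 CPM). In CD45 deep dermis at 0 h, RTS0073610 was at 1409 CPM in mouse 208 (67 counts, next 197 CPM), and in CD45 adipose at 24 h RTS0077040 was at 424 CPM in mouse 219 (12 counts, next 68.0 CPM).

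The other 5 rested on 7 counts or fewer. RTS0077040 was at 423 CPM in CD45 epidermis at 0 h in mouse 219. In PanCK deep dermis at 0 h, also in mouse 219, RTS0068559 was at 143 CPM and RTS0068906 at 111 CPM. In CD45 epidermis, RTS0064223 was at 0 CPM at 24 h in mouse 219 and RTS0078750 at 0 CPM at 0 h in mouse 210, both below the other segments.

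The log2 change at 24 h was higher in CD45 epidermis than in CD45 deep dermis by 3.11 for RTS0073610 and by 2.36 for RTS0077040, with the difference itself tested in edgeR's quasi-likelihood fit (adjusted p = 0.0167 and 0.0309). Leaving out mouse 208 or 219 ended both calls. The part of the single deep dermal segment with 67 counts of RTS0073610 in this difference was not tested apart from its mouse.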

How the results depend on the processing

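The number of probes that meet the rule depends on its limits, on the scale and on the mice included. It was 25 (17 of them staying high) at 1.5 times in each mouse and 3 (2) at 3 times. It was 14 (11) with TMM-scaled totals, 15 (13) with upper-quartile-scaled totals, and 4 (2) with scaling to the scarcer probes. It was 19 to 25 (10 to 19) with 1 mouse left out and 6 to 10 (3 to 8) with 1 segment left out. Leaving out a mouse also loosens the rule, which then asks for the fold in the remaining mice alone. By TMM and upper quartile all 7 remained, but 4 did with the mean of the CPM of the segments, which also gave 7 (4 staying high, 3 of them shared). Of the 5 that stayed high, 4 remained without mouse 208, 1 without mouse 210 and 3 without mouse 219. In each mouse rather than by means, 1 stayed high.

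Members called higher in CD45 epidermis at 6 h numbered 3, against 0 with no filter or with limma, 1 with DESeq2's test and 0 to 2 with a mouse left out. At 24 h they numbered 4, against 1 with no filter or with limma, 2 with scaling to the scarcer probes and 2 to 4 with a mouse left out. In PanCK deep dermis at 24 h they numbered 2, and 1 to 2 with a mouse left out. Of the differences at 24 h between CD45 epidermis and CD45 deep dermis, 2 were called, against 1 with upper quartile scaling, 1 without the replicate block and 0 to 1 with a mouse left out. The cause was not tested. Without the replicate block no other count of members called changed by more than 1.5 times. The calls lost without it were those of RTS0068559 in PanCK deep dermis at 6 h (adjusted p = 0.0661 in edgeR's test) and of RTS0077040 in that difference at 24 h (0.0784). Scaling to the scarcer probes moved the median log2 change of all probes tested in CD45 epidermis at 24 h from -0.21 to -1.25.

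Of 285 values of single probes under an alternative, 240 kept their direction and side of the threshold, 38 lost the call and 7 turned, all of changes not called. These were RTS0073610 in PanCK deep dermis at 6 h (-0.064 with limma) and, with a mouse left out, RTS0077040 in CD45 epidermis at 6 h (-0.19 to 1.59) and in CD45 adipose at 6 h (-3.43 to 2.09) and 24 h (-0.40 to 1.88). Likewise turned the differences between CD45 epidermis and CD45 deep dermis of RTS0068906 at 6 h (-0.332 to 1.498) and of RTS0068559 at 6 h (-0.94 to 0.65) and 24 h (-1.43 to 1.15). The 240 include omission of the shallow segment in compartments that do not hold it, where the result could not differ. In the smallest sum, with 17076 counts (CD45 deep dermis, mouse 219, 6 h), 1 count is worth more than the median probe. Other sums outside PanCK epidermis held up to 422250 counts. With the filter, RTS0064223 and RTS0068833 entered the test in no compartment, PanCK epidermis included.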
